A study of Macaca mulatta with 4 samples.

Results

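The beta-1,4-galactosyltransferase genes B4GALT1 to B4GALT7 and 3 genes of early ganglioside synthesis, UGCG, ST3GAL5 and B4GALNT1, were followed by RNA sequencing in stem and neural progenitor cells of the rhesus monkey, Macaca mulatta. These 10 genes were taken by symbol from a table of 23697 genes, each had a single row, and all 10 were among the 14474 whose mean reached 1 FPKM (fragments per kilobase of transcript, adjusted for sequencing depth). The series concerns haploid neural progenitor cells, whose nuclei hold 1 copy of each chromosome, and gene trap screens with piggyBac transposons for targets of neural toxicants. It holds 4 samples, each described as embryo tissue differentiated in vitro. Those compared here were diploid embryonic stem cells (ESCs) labelled with embryonic day 3.5, haploid ESCs labelled with day 2.5, and diploid neural progenitor cells (NPCs) labelled with day 3.5. Haploid NPCs were not analysed here. No genotype, treatment, passage or cell line name is given in the labels for these groups, and haploid and diploid ESCs differ in the labelled day as well as in ploidy, which cannot be told apart.

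Beta-1,4-galactosyltransferases are Golgi enzymes that pass galactose from UDP-galactose to a sugar acceptor, and the members differ in the acceptor they prefer. Gangliosides are sialic acid bearing sphingolipids that are abundant in the plasma membrane of nerve cells. Their synthesis starts when UGCG puts glucose on ceramide; B4GALT5 and B4GALT6 then add galactose to make lactosylceramide, ST3GAL5 adds sialic acid to make the ganglioside GM3, and B4GALNT1 adds N-acetylgalactosamine to open the branch of complex gangliosides. In the developing mammalian brain the simple gangliosides of early neural cells give way to complex ones.

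Where 3 values follow each other, they are for diploid ESCs, haploid ESCs and diploid NPCs, in that order. Each group had 1 library, so no difference below has a replicate check, no p-value was computed, and no spread was available to say whether neighbouring levels differ. How many reads each library had is not stated in the sources used here. Relative to the diploid ESC library, the steps between low values put the depth of the haploid ESC library at 95.3% and that of the NPC library at 78.7%. The labelled cell types were checked against 6 markers each: pluripotency markers summed to 2641 FPKM in the diploid ESC library, 2010 FPKM in the haploid ESC library and 3.2 FPKM in the NPC library, and neural progenitor markers to 449, 455 and 1818 FPKM. SOX1, a transcription factor of neural progenitors, stood at 0.09, 0.14 and 18.2 FPKM. Of the 6 neural progenitor markers, 5 were at least 2-fold higher in NPCs than in diploid ESCs. The remaining marker, NES, was nearly level at 253, 266 and 280 FPKM. The largest values in NPCs besides NES were those of VIM, at 195, 183 and 1101 FPKM, and FABP7, at 0.86, 6.0 and 403 FPKM. Markers of other cell types differed as well. All 6 neuron markers were at least 2-fold higher in NPCs than in diploid ESCs, with sums of 58.4 FPKM for diploid ESCs, 70.2 FPKM for haploid ESCs and 725 FPKM for NPCs. All 6 endoderm markers were highest in the diploid ESC library, by at least 2-fold against either other library, with sums of 300.0 FPKM there, 16.9 FPKM in the haploid ESC library and 30.5 FPKM in the NPC library, and SOX17 was listed at 0 in NPCs. Fibroblast markers summed to 449, 567 and 107 FPKM, but they did not move together. Only 2 of the 6 were at least 2-fold lower in NPCs than in diploid ESCs. These were COL1A1, at 235, 206 and 12.7 FPKM, and THY1, at 138, 137 and 36.4 FPKM. The low genes LUM, at 0.98, 0.26 and 2.17 FPKM, and DCN, at 0.87, 1.6 and 1.13 FPKM, were higher in NPCs than in diploid ESCs. The part of these cell types in the values below was not tested, and in bulk RNA fewer cells of a type and less RNA per cell cannot be told apart.

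The first question was which of these enzymes differ between progenitors and stem cells of the same ploidy, diploid NPCs and diploid ESCs. The starting enzyme of the glycosphingolipid pathway was much lower in NPCs, both lactosylceramide synthases differed little, and the sialyltransferase and N-acetylgalactosaminyltransferase that follow were higher. UGCG, ceramide glucosyltransferase (NCBI gene 707875), stood in diploid ESCs at 6.66 FPKM, in haploid ESCs at 10.9 and in NPCs at 0.57. The NPC value was the lowest of all 30 values of the 10 genes, and it lay below both stem cell libraries. On FPKM itself it was 11.7-fold lower than in diploid ESCs, and the log2 ratio of FPKM plus 1, the scale used for all ratios below and one that understates the differences of low genes, was -2.29. Of all genes tested, 4.58% had a lower ratio.

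Transcripts for the galactose step of the lipid pathway differed little between NPCs and diploid ESCs. B4GALT5 (NCBI gene 713891), which makes most lactosylceramide in mouse tissues outside the brain, stood in diploid ESCs at 26.1 FPKM, in haploid ESCs at 43.0 and in NPCs at 22.8. B4GALT6 (NCBI gene 706068), its close relative that works with it in the mouse brain, was at 3.27, 5.09 and 2.88 FPKM. In each of the 3 libraries B4GALT6 was the lowest of the B4GALT genes. For both genes the haploid ESC library was the highest and the NPC library the lowest, with log2 ratios of NPCs to diploid ESCs of -0.19 and -0.14. The level of B4GALT5 was 7.97 times that of B4GALT6 in diploid ESCs, 8.45 times in haploid ESCs and 7.90 times in NPCs, so the balance of the pair was nearly the same in all 3 libraries. The sum of both was 4.41 times the UGCG level in diploid ESCs, 4.40 times in haploid ESCs and 45.0 times in NPCs. The NPC figure divides by a UGCG value of 0.57 FPKM, low and from 1 library.

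The ganglioside enzymes ST3GAL5 and B4GALNT1, which act on lactosylceramide and GM3, were low in stem cells and higher in NPCs. ST3GAL5, the GM3 synthase (NCBI gene 696842), stood in diploid ESCs at 1.97 FPKM, in haploid ESCs at 2.03 and in NPCs at 8.04, a log2 ratio of NPCs to diploid ESCs of 1.61. B4GALNT1, the GM2 and GD2 synthase (NCBI gene 715317), stood at 2.39, 0.84 and 9.44 FPKM, with a ratio of 1.62. On FPKM itself the NPC values were 4.08 times the diploid ESC value for ST3GAL5 and 3.95 times for B4GALNT1. The stem cell libraries were nearly alike for ST3GAL5, while for B4GALNT1 the haploid one was the lower. The gene SLC26A10 overlaps B4GALNT1 in the T2T-MMU8v2.0 gene table and stood at 0.39, 0.09 and 2.21 FPKM. Reads in the overlap fell under the counting defaults, and their effect on either value was not tested. The level of UGCG was 3.38 times that of ST3GAL5 in diploid ESCs and 5.39 times in haploid ESCs, whereas in NPCs ST3GAL5 was at 14.1 times the level of UGCG. This NPC ratio rests on the low UGCG value of 0.57 FPKM in 1 library.

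**Figure D1:**
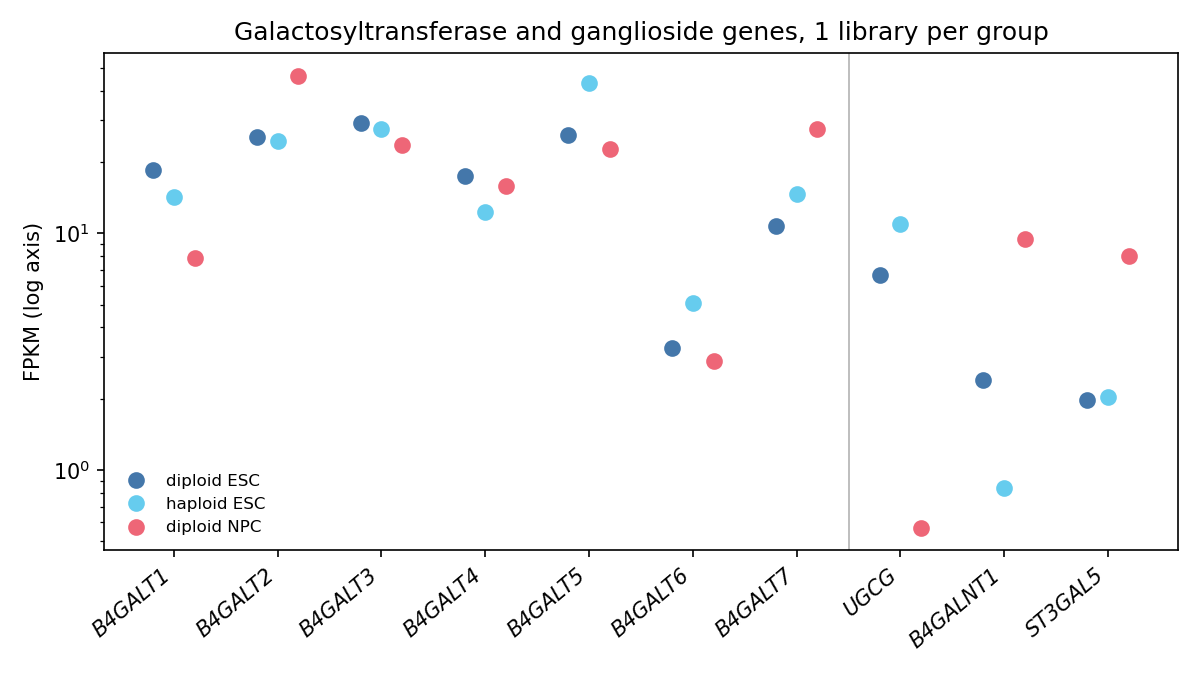
FPKM on a log axis of the 7 B4GALT genes, left of the grey line, and of UGCG, B4GALNT1 and ST3GAL5, right of it; each point is 1 library and there are no error bars because each group has 1 library. UGCG is lowest in diploid NPCs, at 0.57 FPKM, where B4GALNT1 and ST3GAL5 reach 9.44 and 8.04 FPKM, and B4GALT6 is the lowest of the B4GALT genes in every library.

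The other B4GALT genes, which act mainly on glycoproteins and proteoglycans, differed in both directions. B4GALT1 (NCBI gene 703541) galactosylates N-glycans and, in milk glands, makes lactose together with alpha-lactalbumin. It stood in diploid ESCs at 18.5 FPKM, in haploid ESCs at 14.2 and in NPCs at 7.84, a log2 ratio of NPCs to diploid ESCs of -1.14. B4GALT2 (NCBI gene 704038), which also galactosylates N-glycans, was at 25.5, 24.6 and 46.4 FPKM, with a ratio of 0.84 that did not reach 2-fold. The ESC libraries were close for B4GALT2, and the NPC library was apart from them. The level of B4GALT2 was 1.38 times that of B4GALT1 in diploid ESCs, 1.73 times in haploid ESCs and 5.92 times in NPCs.

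B4GALT7 (NCBI gene 701000) adds the first galactose of the tetrasaccharide that links heparan and chondroitin sulfate chains to proteoglycan core proteins. It stood in diploid ESCs at 10.7 FPKM, in haploid ESCs at 14.7 and in NPCs at 27.6, a log2 ratio of NPCs to diploid ESCs of 1.29. The NPC library was the highest and the diploid ESC library the lowest. B4GALT3 (NCBI gene 719920), an enzyme of N-glycans, was at 29.2, 27.7 and 23.6 FPKM, with a ratio of -0.29, and B4GALT4 (NCBI gene 711983), which acts in keratan sulfate synthesis, at 17.5, 12.3 and 15.9 FPKM, with a ratio of -0.13. These 2 genes varied least between NPCs and diploid ESCs among the B4GALT genes outside the lactosylceramide pair.

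Because FPKM is scaled to transcript length, levels were set beside each other across genes. The lengths used are not stated in the sources used here, so such comparisons between genes are approximate. The 7 B4GALT genes gave a sum of 131 FPKM for diploid ESCs, 142 FPKM for haploid ESCs and 147 FPKM for NPCs. All genes together summed to 568734, 492324 and 600215 FPKM. The order of the B4GALT sums therefore depends on scaling: relative to these totals, haploid ESCs and not NPCs would be highest. Different genes led in each library: B4GALT3 held 22.3% of the sum in diploid ESCs, B4GALT5 held 30.4% in haploid ESCs and B4GALT2 held 31.6% in NPCs. B4GALT7 took 8.18%, 10.4% and 18.8% of the sum in diploid ESCs, haploid ESCs and NPCs, and B4GALT1 took 14.1%, 10.0% and 5.34%. B4GALT6 took no more than 3.59% of the sum in any library. The order of levels in diploid ESCs ran from B4GALT3, B4GALT5, B4GALT2, B4GALT1, B4GALT4, B4GALT7 and UGCG to B4GALT6, B4GALNT1 and ST3GAL5. In haploid ESCs it ran B4GALT5, B4GALT3, B4GALT2, B4GALT7, B4GALT1, B4GALT4, UGCG, B4GALT6, ST3GAL5 and B4GALNT1. In NPCs it ran B4GALT2, B4GALT7, B4GALT3, B4GALT5, B4GALT4, B4GALNT1, ST3GAL5, B4GALT1, B4GALT6 and UGCG.

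**Figure D2:**
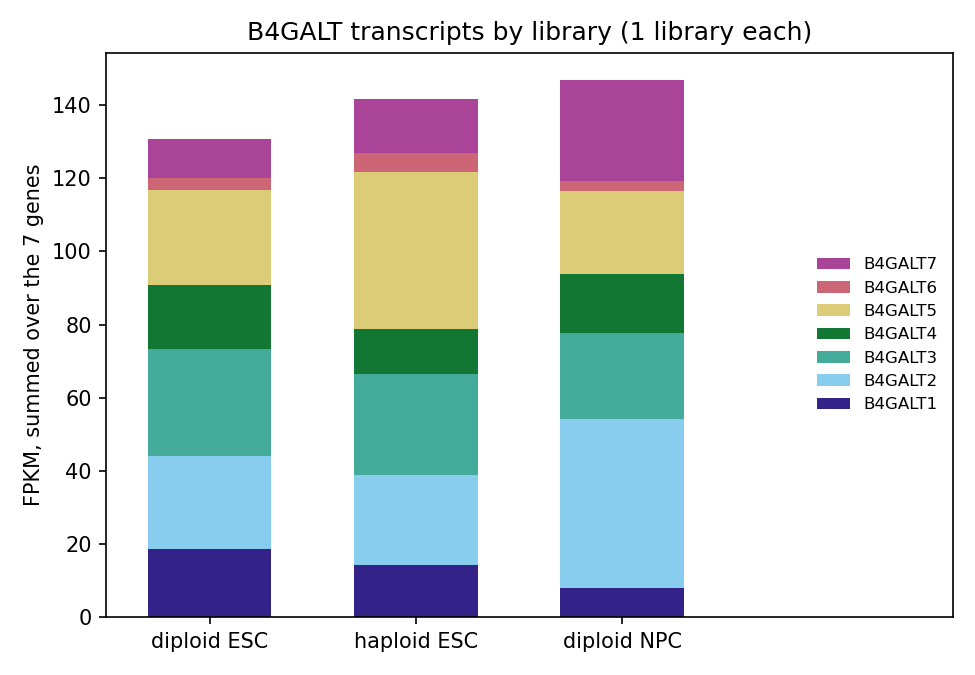
FPKM of the 7 B4GALT genes stacked by library, with 1 library per bar. The bars reach 131, 142 and 147 FPKM as deposited, an order that depends on scaling. The B4GALT7 share widens from 8.18% in diploid ESCs to 18.8% in diploid NPCs, and the B4GALT1 share narrows from 14.1% to 5.34%.

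Counted by a fixed size of 2-fold on the scale of FPKM plus 1, 3 of the 10 genes were higher in NPCs than in diploid ESCs (B4GALT7, B4GALNT1 and ST3GAL5) and 2 were lower (B4GALT1 and UGCG). Of all 14474 genes tested, 22.7% were at least 2-fold higher and 19.6% at least 2-fold lower, so these counts lay near the background and are no result about the 10 genes as a set. Their median log2 ratio was -0.14, against 0.01 for all genes. At a size of 4-fold UGCG alone was left, where 6.11% of all genes were lower and 8.28% higher. Against haploid ESCs, which differ from the NPC sample in ploidy and labelled day too, UGCG had a log2 ratio of -2.93 and was 19.2-fold lower on FPKM itself. B4GALNT1 had a ratio of 2.5 in that comparison and ST3GAL5 of 1.58, while B4GALT1 at -0.78 and B4GALT7 at 0.86 did not reach 2-fold. There 2 of the 10 genes were higher by 2-fold or more and 1 lower, against 26.0% and 23.9% of all genes, and their median log2 ratio was 0.06. Lower genes numbered 3 (UGCG, B4GALT1 and B4GALT5) when libraries were rescaled to the same sum and 2 (UGCG and B4GALT5) with trimmed mean factors, and the median became -0.21 and -0.10. Both NPC comparisons use the same NPC library.

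The second question was whether these transcripts differ between haploid and diploid stem cells. None of the 10 genes differed by 2-fold in either direction on the scale of FPKM plus 1, where 7.19% of all genes were higher by at least 2-fold in the haploid library and 9.18% lower. The median log2 ratio was -0.01, against 0.02 for all genes. The highest ratios were those of B4GALT5, at 0.70, UGCG, at 0.64, and B4GALT6, at 0.51. These 3 genes make glucosylceramide and lactosylceramide, and on FPKM itself their haploid values were 1.65, 1.64 and 1.56 times the diploid ones. Such ratios were not rare: 14.06%, 16.15% and 21.33% of all genes tested had a higher one, in the same order. B4GALT7 followed with a ratio of 0.43. The lowest ratio was that of B4GALNT1, at -0.88, whose haploid value of 0.84 FPKM was 2.85-fold below the diploid one on FPKM itself, so that with a pseudocount of 0.1 in place of 1 it passed 2-fold, at -1.41. B4GALT4 had a ratio of -0.48 and B4GALT1 of -0.36. B4GALT2, at -0.05, B4GALT3, at -0.07, and ST3GAL5, at 0.03, were nearly level. When each library was rescaled to the same sum, which moved the median of all genes by 0.19, the ratio of B4GALT2 became 0.15 and that of B4GALT3 became 0.13.

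**Figure D3:**
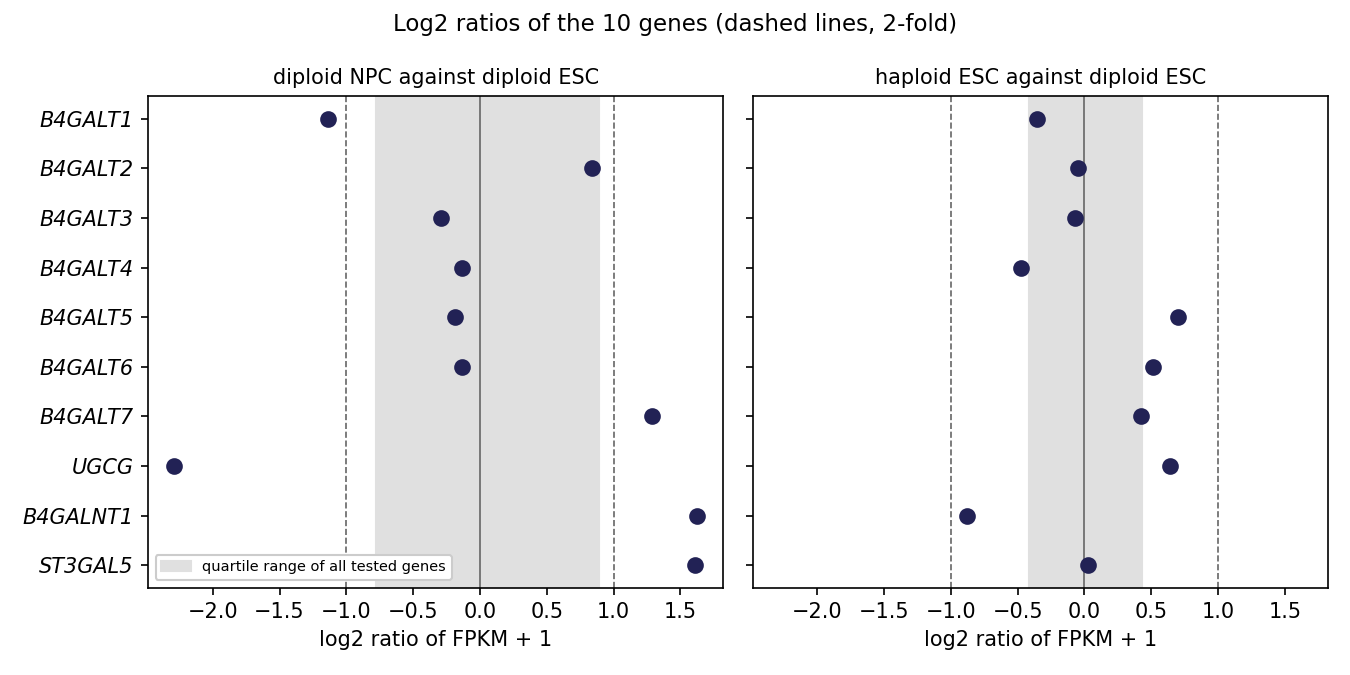
Log2 ratios of FPKM plus 1 for the 10 genes in diploid NPCs against diploid ESCs (left) and haploid against diploid ESCs (right); each point is the ratio of 2 single libraries, the grey band spans the lower to the upper quartile of the 14474 genes tested and dashed lines mark 2-fold. In the NPC panel UGCG lies at -2.29 and B4GALNT1 and ST3GAL5 at 1.62 and 1.61, while in the haploid panel no gene passes 2-fold.

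Other genes of the pathway were read from 7 lists of 78 symbols, all of them in the table by their current or an older symbol, and 70 with a mean of at least 1 FPKM. Their counts and medians stand beside those of all genes given above, and no test was run on any list. In NPCs against diploid ESCs 22.7% of all genes were at least 2-fold higher and 19.6% lower. The shares were 7.19% and 9.18% in haploid against diploid ESCs, and 26.0% and 23.9% in NPCs against haploid ESCs. A list count near these shares is no result about the list. Ceramide supply and transfer, which covers the steps before UGCG and carriers of ceramide and of glycolipids, held 4 genes of 12 tested that were lower in NPCs than diploid ESCs by 2-fold or more and none that was higher; its median log2 ratio was -0.81. KDSR, which reduces ketodihydrosphingosine, stood in diploid ESCs at 23.8 FPKM, in haploid ESCs at 23.5 and in NPCs at 2.72. PLEKHA8, which carries glucosylceramide to the later Golgi, was at 6.77, 18.2 and 0.77 FPKM. DEGS1, the desaturase that makes ceramide, was at 43.2, 43.3 and 10.5 FPKM. The ceramide synthase CERS1 was at 2.94 and 2.55 FPKM in the ESC libraries and listed at 0 in NPCs. For KDSR and DEGS1 the stem cell libraries were nearly equal and the NPC library was low, while SPTLC2, a subunit of the enzyme that starts sphingolipid synthesis, was at 10.4, 13.5 and 19.2 FPKM. The median of this list was 0.25 in haploid against diploid ESCs, with CERS4 at 15.4 FPKM in the diploid and 2.46 FPKM in the haploid library.

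Branches that compete with gangliosides for ceramide or lactosylceramide held 2 genes of 6 tested that were lower in NPCs by 2-fold or more and none that was higher; their median log2 ratio was -0.79. GAL3ST1, the sulfatide synthase, stood in diploid ESCs at 5.71 FPKM, in haploid ESCs at 0.35 and in NPCs at 0.38. UGT8, which makes galactosylceramide, was at 2.12, 0.78 and 0.38 FPKM. Both were lower in haploid than in diploid ESCs as well. B3GNT5 and A4GALT, which extend lactosylceramide into the lacto and globo series, were at 3.67, 4.56 and 3.85 FPKM and at 1.64, 0 and 0.29 FPKM, the latter with a mean below 1 FPKM. B3GALNT1, the globoside synthase, was at 9.21, 21.5 and 5.49 FPKM, and SGMS1, a sphingomyelin synthase, at 3.12, 3.55 and 1.19 FPKM; with a pseudocount of 0.1, 4 of the 6 were at least 2-fold lower in NPCs.

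Later ganglioside synthesis had 2 of 9 tested genes that were 2-fold or more higher in NPCs than in diploid ESCs and 2 that were lower by as much, and a median of -0.03. Against haploid ESCs 2 were higher and 3 lower by as much. The median there was 0.20, or -0.02 when libraries were rescaled to the same sum. The sialyltransferases that add sialic acid to sialic acid differed among themselves. ST8SIA1, the GD3 synthase, stood in diploid ESCs at 0.45 FPKM, in haploid ESCs at 3.18 and in NPCs at 3.81, and ST8SIA5, which acts on complex gangliosides, at 1.87, 0.64 and 7.59 FPKM. ST8SIA3 went the other way, at 1.79, 8.9 and 0.19 FPKM. ST8SIA5 had the same order over the libraries as B4GALNT1, lowest in haploid ESCs and highest in NPCs. ST3GAL2, which sialylates the terminal galactose of complex gangliosides, was at 10.1, 16.7 and 4.1 FPKM, and ST3GAL1 at 2.46, 12.0 and 4.82 FPKM. In haploid against diploid ESCs this list had 3 of 9 genes at least 2-fold higher (ST3GAL1, ST8SIA3 and ST8SIA1) and 2 at least 2-fold lower (ST6GALNAC6 and ST6GALNAC4), with a median of 0.22; ST6GALNAC4 did not reach 2-fold when libraries were rescaled to the same sum.

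Ganglioside breakdown differed little between NPCs and diploid ESCs: of 12 tested genes 1 was higher and 1 lower by 2-fold or more, and the median was 0.04. It became -0.04 when libraries were rescaled to the same sum and -0.08 with trimmed mean factors. Against haploid ESCs 1 was higher and none lower by 2-fold or more. The median there was 0.18, or -0.09 when libraries were rescaled to the same sum. The gene above 2-fold was GALC, the lysosomal galactosylceramidase, which stood in diploid ESCs at 39.0 FPKM, in haploid ESCs at 13.3 and in NPCs at 157. HEXA, a lysosomal hexosaminidase subunit, was at 41.4, 26.4 and 32.0 FPKM, and PSAP, the precursor of the saposins that present lipids to these enzymes, at 196, 150 and 219 FPKM.

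Supply of sugar nucleotides to these enzymes had 1 gene of 10 that was higher in NPCs than diploid ESCs by 2-fold or more. Another 3 were lower by as much, and the median was -0.61. Against haploid ESCs 2 of the 10 were higher and 2 lower by 2-fold or more. The median there was 0.19, or -0.08 when libraries were rescaled to the same sum. GNE, the enzyme that starts sialic acid synthesis, stood in diploid ESCs at 7.33 FPKM, in haploid ESCs at 9.18 and in NPCs at 51.8, a log2 ratio of 2.66. UGP2, which makes the UDP-glucose that UGCG uses, was at 117, 57.9 and 23.3 FPKM. UGDH, which turns UDP-glucose into UDP-glucuronate, was at 70.3, 76.9 and 13.0 FPKM. SLC35A2, which carries UDP-galactose into the Golgi for galactosyltransferases, was at 43.8, 27.1 and 14.1 FPKM. NANS and CMAS, which act after GNE in making and activating sialic acid, were at 44.7, 16.5 and 28.7 FPKM and at 34.8, 41.9 and 20.7 FPKM. The NPC library was thus the highest of the 3 for GNE and the lowest for CMAS, UGP2, UGDH and SLC35A2.

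In the proteoglycan linkage region, where B4GALT7 acts, 3 of 9 tested genes were higher in NPCs than in diploid ESCs by 2-fold or more. None was lower by as much, and the median was 0.30. Against haploid ESCs 2 of the 9 were higher and 1 lower by 2-fold or more. The median there was -0.35, so its sign depended on the stem cell library. B3GALT6, which adds the second galactose after B4GALT7, stood in diploid ESCs at 3.73 FPKM, in haploid ESCs at 6.63 and in NPCs at 16.9. B3GAT3, which adds the glucuronic acid that completes the linker, was at 12.9, 9.97 and 44.6 FPKM. B4GALT7, B3GALT6 and B3GAT3, which act one after another, had log2 ratios of 1.29, 1.92 and 1.72. Against haploid ESCs these ratios were 0.86, 1.23 and 2.06. XYLT1, another gene of the list, had a ratio of -0.14 against diploid ESCs. FAM20B, the xylose kinase of the linker, was at 6.99, 17.9 and 15 FPKM, a ratio of 1.0 that did not reach 2-fold under either other scaling. The chain polymerase subunits EXT1, at 22.0, 40.2 and 28.5 FPKM, and EXT2, at 29.2, 23.7 and 18.4 FPKM, differed by less than 2-fold between NPCs and diploid ESCs. In haploid against diploid ESCs the list had a median of 0.69 with 1 of 9 genes at least 2-fold higher, or 4 of 9 when libraries were rescaled to the same sum.

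The list of N-glycan branching and capping holds genes of the glycans on which B4GALT1, B4GALT2 and B4GALT3 act. Of its 12 genes, 5 were higher and 2 lower in NPCs than in diploid ESCs by 2-fold or more. The median was 0.48. Against haploid ESCs 4 were higher and 4 lower by as much, with a median of 0.41. MGAT4A and MGAT5, which start further antennae, stood at 7.99 and 15.8 FPKM in diploid ESCs, 3.37 and 9.39 FPKM in haploid ESCs and 29.1 and 40.5 FPKM in NPCs. B3GNT2, which alternates with B4GALT enzymes to extend polylactosamine chains, was at 29.2, 12.4 and 1.11 FPKM. The capping sialyltransferases differed among themselves: ST6GAL1, which links sialic acid to galactose by the alpha-2,6 bond, was at 12.0, 13.1 and 0.47 FPKM, whereas ST3GAL3, which makes the alpha-2,3 bond, was at 2.27, 3.6 and 19.6 FPKM. ST3GAL4, another alpha-2,3 enzyme, was at 21.2, 15.9 and 19.2 FPKM. ST6GAL1 had, like UGCG, its lowest value in NPCs by more than 4-fold.

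**Figure D4:**
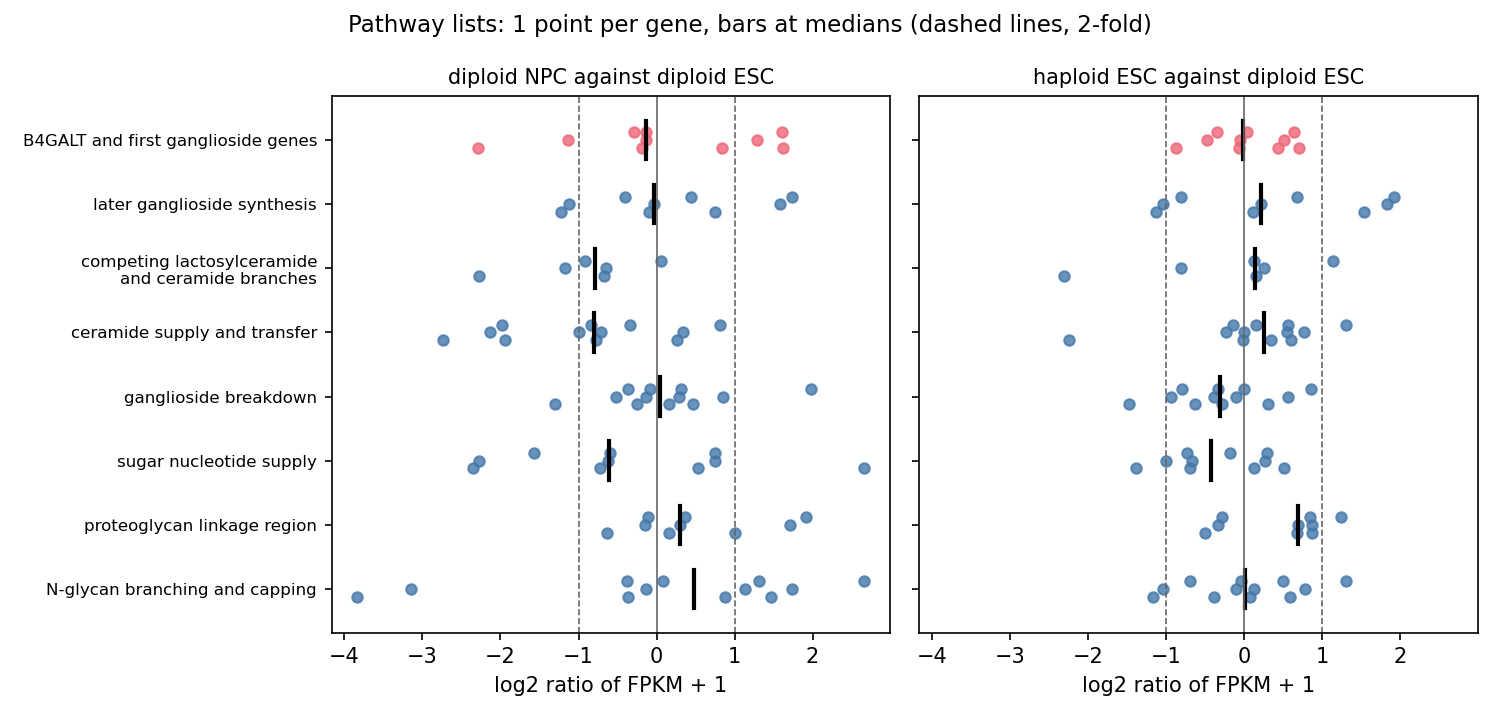
Log2 ratios of FPKM plus 1 for the genes of 8 lists, with 1 point per gene at a mean of at least 1 FPKM, black bars at list medians and dashed lines at 2-fold, in diploid NPCs against diploid ESCs (left) and haploid against diploid ESCs (right). In the left panel ceramide supply and the competing branches have medians of -0.81 and -0.79, and the 10 genes in red spread on both sides of 0.

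UGCG had the largest ratio of the 10 genes in size, so the genes most like it in pattern were looked for among 6642 others with a symbol and a mean of at least 10 FPKM, by the Euclidean distance of log2 values centred over the 3 libraries. With the pseudocount of 1 the nearest 5 were EIF4E, TDRP, CDCA7L, IGLON5 and MED14, at distances of 0.07 to 0.09, and 41 genes lay within a distance of 0.25. This likeness depends on the pseudocount, which pulls in the low NPC value of UGCG and hardly moves genes at 10 FPKM or more: on FPKM itself UGCG was 11.7-fold lower in NPCs than in diploid ESCs, and EIF4E, the cap binding protein of translation, was 5.04 times as high in diploid ESCs as in NPCs, at 84.7, 141 and 16.8 FPKM. With a pseudocount of 0.1, an alternative chosen after seeing the data, 11 genes lay within 0.25 and the nearest 5 were GADD45B, CRKL, FBLN2, ANXA3 and DDX3X, of which 0 were among the 5 above. GADD45B, a stress response gene, stood at 41.9, 70.1 and 4.13 FPKM. The 3 libraries leave little room for patterns to differ.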

How the data were processed

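Total RNA was read on a BGISEQ-500 sequencer. Mapping allowed 2 mismatches on the rhesus assembly that UCSC names Rhesus8, and featureCounts with its defaults gave the reads of each gene, per the labels' protocols; a gene stayed in the table when its reads over all samples summed to more than 10. STAR 2.4 is the aligner in the submitters' processing notes. Values deposited by the authors are FPKM with 2 decimals, and their formula is not stated in the sources used here. The use of strand is not named apart from the counting defaults. A column was given to the sample whose description starts its name: 3 columns were used this way, and 1 further column of values fitted no description and was left out, so haploid NPCs were not analysed here.

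FPKM was taken as deposited. Log2 ratios used FPKM plus a pseudocount of 1, over the 14474 genes whose mean across 3 libraries was 1 FPKM or more, and differences of 2-fold were counted. With 1 library per group no test was run. Relative depth was the most frequent ratio, on a smoothed log2 scale, of the diploid ESC value to that of the other library. It was taken among values of 0.15 to 0.6 FPKM, from 1311 genes (haploid ESCs) and 905 genes (NPCs). This ratio equals relative depth only if FPKM was divided by the reads of each library, and the formula is not stated. Overlapping genes were read from the T2T-MMU8v2.0 gene table, another assembly than that used for mapping. Genes that overlap B4GALT4 (a long noncoding RNA) and B4GALT6 (a small nuclear RNA) there were not analysed here.

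The 10 genes, 7 pathway lists and 5 marker lists were chosen with earlier results of these data known. All 10 genes were named, and of each other list at most its 3 highest and 3 lowest ratios and any gene averaging 10 FPKM or more. A4GALT, and the genes nearest to UGCG with a pseudocount of 0.1, were named after their values were seen. Some list genes are counted but not reported here by name. Alternatives were a pseudocount of 0.1, libraries scaled to a total of 1000000, trimmed mean (TMM) factors, the low-value filter dropped or set to 5 FPKM, and thresholds of 1.5-fold and 4-fold. The log2 ratios, 2-fold calls and trimmed mean factors were tested on simulated data made from genes at 5 FPKM or more. Lower values, relative depth, nearest patterns and overlaps were not tested in this way. Python 3.11.15, numpy 2.4.6, pandas 2.3.3 and matplotlib 3.10.9 were used.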

Additional observations from a re-analysis of the deposited data

How the results depend on the processing

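No paired analysis was possible because each group had 1 library, and no library could be left out. In NPCs against diploid ESCs the 3 higher and 2 lower genes of the 10 stayed in number with a pseudocount of 0.1, both other scalings and no filter; 1 was higher at a mean of at least 5 FPKM, which removes ST3GAL5, B4GALNT1 and B4GALT6, and 0 were higher and 1 lower at 4-fold. In haploid against diploid ESCs, 1 was lower with a pseudocount of 0.1, 2 were higher and 1 lower at 1.5-fold, and the median was 0.18 after rescaling to a sum of 1000000, which moved the median of all genes by 0.19 and the share of higher genes among all 2-fold calls from 43.9% to 59.3%. In NPCs against haploid ESCs, the same rescaling gave 3 lower genes and a median of -0.21, moved the median of all genes by -0.26 and the share of higher calls from 52.1% to 42.1%; TMM factors gave 2 lower genes and a median of -0.10, and a mean of at least 5 FPKM gave 0 higher genes and a median of -0.22. There 1 gene was higher at 4-fold, and 4 were higher and 4 lower at 1.5-fold. TMM factors moved the median of all genes by -0.13 in NPCs against diploid ESCs. Of 90 single gene ratios recomputed, 84 kept both their direction and their side of 2-fold and 6 did not; those 6 were within 2-fold as reported. The values below 1 FPKM, UGCG in NPCs and B4GALNT1 in haploid ESCs, rest on a number of reads that is not stated.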
